A study of Mus musculus with 5 samples.

Results

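Retained-intron transcripts are RNAs of protein-coding genes in which at least part of an intron stays in the sequence. Of 20141 such transcripts (Gencode gene type protein_coding, transcript type retained_intron) among the 135276 transcripts with deposited read counts, 13416 from 5790 genes were selected on their read level and are described here: they reached 1 CPM (counts scaled to the library's total after TMM adjustment of that total) or more in 1 or more libraries. The remaining 6725 stayed under that level in all libraries, 1219 of them with no read at all. They were thus chosen by CPM in these same libraries, so their detection is no result. Just inside the threshold, transcripts of Rassf1 and Usp21 reached 1.01 CPM in their best library, and just outside it, transcripts of Gpc6 and Parp11 reached 0.999 CPM. In all 5 libraries 10886 transcripts had 1 CPM or more, while 588 reached it only in standard libraries and 446 only in AHARIBO libraries.

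The libraries came from ribosome profiling of mouse embryonic stem cells (mESCs), untreated according to the labels, grown with leukaemia inhibitory factor (LIF) on gelatin, pre-treated with cycloheximide, and RNase I digestion (45 min with 1.3 U) left the footprints. In standard RIBO-seq (3 biological replicates) 80S ribosomes were pelleted through 30% sucrose, and in AHARIBO RIBO-seq (2 biological replicates) ribosomes were caught on magnetic beads through nascent peptides that carry the methionine analogue L-azidohomoalanine (AHA), linked to biotin with 50 µM DBCO-PEG4-biotin. For both, RNA fragments of 25 to 35 nt were sequenced. For both groups the methods describe the same steps up to the digestion, after which ribosomes were purified in different ways. How AHA was dosed for these libraries, and whether the cells of the standard libraries received it, is not spelled out in the sources used here.

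The deposited counts without duplicate reads summed to between 6403651 (standard replicate 3) and 11150527 (AHARIBO replicate 1) per library. With the TMM-adjusted totals of 6303407 and 11429498 for these 2 libraries, a floor of 3 counts lay at 0.476 and 0.262 CPM. All 10 mESC markers, Pou5f1, Nanog and Sox2 among them, were at 43.7 CPM or more in every library. Their summed level was 1447 to 1551 CPM in standard and 1320 to 1430 CPM in AHARIBO libraries. Of the 18 markers of neural, endoderm, mesoderm and fibroblast cells, 11 reached 1 CPM in a library, the neural ones up to 36.8 CPM. The neural sum was 43.0 to 44.9 CPM in standard and 40.3 to 40.7 CPM in AHARIBO libraries, and its part in the results was not tested. In such bulk libraries, fewer cells of a type and less RNA per cell cannot be told apart.

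Introns are normally cut out before an mRNA leaves the nucleus. A retained intron often brings in a premature stop codon, which can send an exported mRNA to nonsense-mediated decay (NMD), and many intron-retaining RNAs stay in the nucleus as incompletely processed molecules. Some genes use the step as a switch: the kinase genes Clk1 and Clk4, the S-adenosylmethionine synthetase gene Mat2a and the O-GlcNAc transferase gene Ogt hold back an intron and release or degrade the RNA on demand. A ribosome footprint is short, so a read from an exon that the retained-intron transcript shares with the mRNA of its gene cannot be told apart from a read of that mRNA.

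What sets these transcripts apart from the mRNA is sequence across exon and intron borders, so borders of transcripts described below are shown first. Reads were counted over whole transcripts and not at these borders. Each window of 30 bases is written 5′ to 3′ on the strand of the gene (GRCm38). Donor windows hold 12 exonic bases followed by 18 intronic ones, with the intron's first 2 bases in capitals. Acceptor windows hold 18 intronic bases followed by 12 exonic ones, with the intron's last 2 bases in capitals. The first 6 windows are donors of transcripts that contain the start codon of their gene and were lower in AHARIBO libraries.
Gspt1 donor, chr16:11253625-11253654, minus strand: gaggcccttcggGTaagttgccgggctgga
Rnf10 donor, chr5:115272239-115272268, minus strand: aacccaagagtgGTaagagccggcgggtct
Aplp2 donor, chr9:31211605-31211634, minus strand: ggctacatagagGTgaggaccaggcgagct
Atl2 donor, chr17:79875784-79875813, minus strand: atgtataacaagGTgaatagtgtctttcaa
Wsb2 donor, chr5:117363748-117363777, plus strand: agaggaacagttGTaagtctttctaccatg
Maf1 donor, chr15:76352763-76352792, plus strand: cagtcccagcagGTaagctgaggtggagac
The next 6 are acceptors of transcripts of Gspt1, Rnf10, Atl2, Wsb2, Maf1 and Setd5 that run out of an intron into the next exon, lack the start codon and were higher in AHARIBO libraries.
Gspt1 acceptor, chr16:11237553-11237582, minus strand: ttctgctgctccttttAGatgcaggcaagt
Rnf10 acceptor, chr5:115245993-115246022, minus strand: attgcctttgctttgcAGatcccgaggtcc
Atl2 acceptor, chr17:79854599-79854628, minus strand: aatcttgtgtctttttAGgcatacattaaa
Wsb2 acceptor, chr5:117376479-117376508, plus strand: gctcttcttgctctgtAGtcacacacagct
Maf1 acceptor, chr15:76353120-76353149, plus strand: gactgtcacctcctgtAGgtggtaaatgca
Setd5 acceptor, chr6:113128394-113128423, plus strand: ttttccctcccattgtAGcgctggataaag
The last pair bounds the intron of Mat2a that its transcript ENSMUST00000206368.1 retains whole.
Mat2a donor, chr6:72437353-72437382, minus strand: aagtggcttgtgGTaggtacagagcacttg
Mat2a acceptor, chr6:72437106-72437135, minus strand: aaaactttgttttattAGaaactgttgcta

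Read in frame from the coding sequence, the Wsb2 and Maf1 donors reach the stop codon TAA after 1 intronic base, visible in the windows. Atl2 meets TGA after 30 intronic bases, Mat2a TAG after 62, Rnf10 TGA after 68, Gspt1 TGA after 323 and Aplp2 TGA after 414. In all, 9540 of the 13410 transcripts whose gene also has a coding transcript in the table ran across a donor in coding sequence. Their 12427 such donors were followed by an in-frame stop before the transcript ended in 96.4% of cases, after a median of 12 codons (interquartile range 3 to 28). GT stood at 98.6% of the donors and AG at 99.7% of the acceptors. A whole intron was retained in 4266 transcripts (31.8%). Among the rest, 5527 ran past a donor and 3983 out of an intron ahead of an acceptor, with some doing both.

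The introns retained whole were short. Here introns of any coding transcript of the gene were taken, whereas the counts above refer to its most abundant coding transcript alone. The 6048 distinct ones had a median length of 274 nt (interquartile range 117 to 724), against 1385 nt (488 to 3410) for the 84038 other introns of the same genes. Those under 200 nt made up 40.2% of the retained introns and 12.9% of the others. The retained introns had a median GC content of 51.3% against 45.1%. Donor and acceptor sites, scored by how closely they match the base frequencies at all introns of coding transcripts, had medians of 7.72 and 8.55 bits for retained and 8.16 and 9.47 bits for the other introns. These are descriptions of the annotation, since which introns are annotated as retained was not decided from these libraries.

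Among the transcripts selected on their level, most lay close to what their share of the mRNA's coding sequence would give. The median over the 13416 transcripts was 4.51 CPM (interquartile range 1.91 to 10.8), and 151 had 100 CPM or more. Per length, the median was 4.19 CPM per kb, beside 4.02 CPM per kb for the annotated protein-coding transcripts above the same threshold. That threshold is on CPM, so a short transcript needs a higher level per kb to pass it than a long one. Each transcript was set against its reference, the coding transcript of the gene with the highest level. The median retained-intron transcript stood at 27.4% of its reference in CPM, and it held 27.5% of the reference's coding sequence. Multiplying the reference's CPM by the share of its coding sequence present in the retained-intron transcript gave a level that the measured one matched with a median quotient of 0.931 (interquartile range 0.738 to 1.16, 13160 transcripts that share coding sequence). The quotient lay within 1.5 times for 9108 of these (69.2%), above 3 for 504 and below 1/3 for 146. Transcripts under 1 CPM in all libraries were left out, which removes low quotients sooner than high ones, so these values depend in part on the selection.

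**Figure D1:**
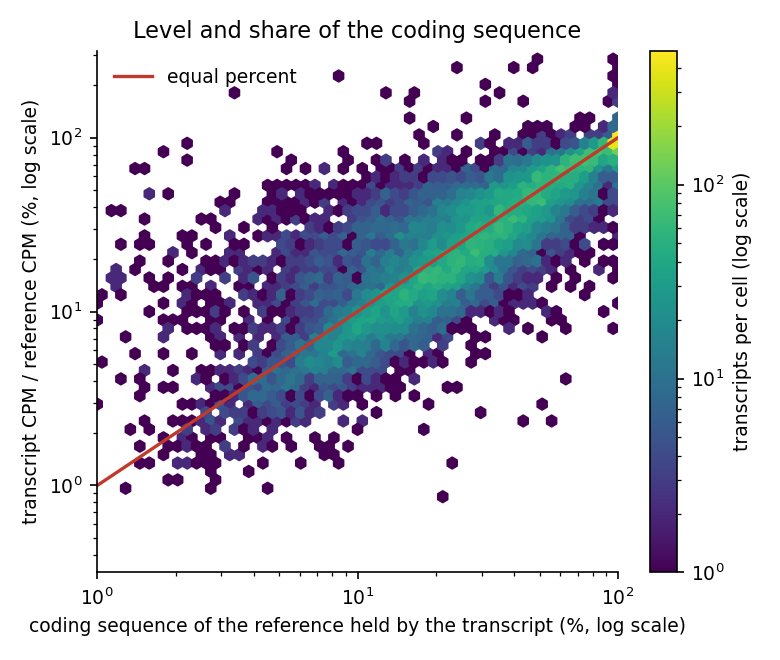
Level of 13160 retained-intron transcripts in percent of the reference transcript's CPM (vertical, log scale, mean of 5 libraries) against the percent of the reference's coding sequence they contain (horizontal, log scale), with colour for the number of transcripts in a cell. Transcripts beyond the axes are not drawn. The transcripts lie along the red line of equal percentages, 69.2% of them within 1.5 times of it, with a scatter of 504 transcripts more than 3 times above it.

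Levels per length, relative to the reference, were lower in transcripts with more sequence not found in other genes or other transcript types. Sequence was compared among Gencode M21 transcripts in windows of 30 nt, about the length of a footprint. A window was called private when no other gene and no transcript of another type of the same gene contained it. Windows shared with other retained-intron transcripts of the gene thus counted as private. The median transcript had 39.8% private windows. In the 3150 transcripts with under 20% private windows, the level per kb was a median of 98.1% of the reference. It fell through 87.4%, 68.8% and 46.9% in the classes up to 80% private, and was 21.7% (interquartile range 11.9 to 37.3) in the 1246 transcripts with 80% or more. Even in that class, 36 transcripts exceeded their reference per kb. These percentages are levels per length in ribosome-protected reads, and how reads that match several transcripts were counted, which the sources used here do not state, enters all of them.

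**Figure D2:**
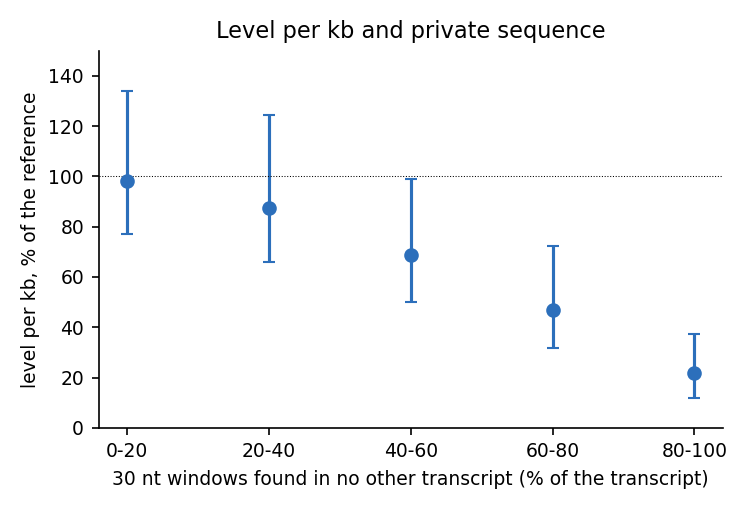
Level per kb of retained-intron transcripts in percent of the reference's level per kb (vertical) in 5 classes of the percent of private 30 nt windows (horizontal). Private windows occurred in no other gene and in no transcript of another type of the same gene. Points are medians and bars interquartile ranges over transcripts, from 98.1% in the class with under 20% private windows to 21.7% in the class with 80% or more.

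The highest levels per kb belonged to genes of the translation machinery and of abundant cytosolic proteins. First came Eef1a1, which encodes the elongation factor that brings aminoacyl-tRNA to the ribosome. Its transcript ENSMUST00000126614.1 (chr9:78479665-78480688) had 435, 412 and 496 CPM in the 3 standard and 342 and 414 CPM in the 2 AHARIBO libraries, 499 CPM per kb. The groups overlapped, and the difference was -0.24 on the log2 scale (SE 0.08, edgeR's quasi-likelihood test, adjusted p = 0.0776). The next 8 per kb were transcripts of the chaperone genes Hsp90ab1 and Hspa8, the ribosomal protein genes Rps18, Rps16, Rps26 and Rps21, the ribosome-bound scaffold gene Rack1 and the actin gene Actg1, between 242 and 289 CPM per kb. In 6 of these 9, at least 50% of the windows also occurred in other genes, so their values are uncertain. The Rack1 transcript ENSMUST00000136703.1, with no window in another gene, held 212, 215 and 235 CPM in standard and 162 and 189 CPM in AHARIBO libraries. Both AHARIBO values lay below all 3 standard ones (log2 difference -0.33, SE 0.08, edgeR adjusted p = 0.00859), as they did for the Rack1 reference (-0.27, SE 0.08, edgeR adjusted p = 0.0341).

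In 211 transcripts there was no coding sequence of the gene at all. They had a median of 2.09 CPM, against 3.96 CPM in the 6898 with up to 50% coding sequence and 5.21 CPM in the 6307 with more. The highest came from Tmcc1, a gene for a transmembrane and coiled-coil protein. Its transcript ENSMUST00000204574.1 (chr6:116171617-116174313), 98.1% of which lies outside the exons of other transcript types of the gene, had 177, 168 and 193 CPM in standard and 145 and 165 CPM in AHARIBO libraries, whereas the Tmcc1 reference had a mean of only 4.15 CPM. AHARIBO values were the lower ones without overlap, though the difference did not pass the test (-0.21, SE 0.08, edgeR adjusted p = 0.124). In 10.7% of its windows the sequence also occurred in other genes. Next came transcripts of Gm16286, of Emb, which encodes the cell adhesion protein embigin, and of Zfp57, a zinc finger factor that protects imprints, with 29.3, 26.3 and 24.0 CPM. Of the windows of the Gm16286 and Emb transcripts, 24.8% and 25.6% were found in other genes.

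Transcripts of Rhoa, Eif5 and Atp5j in the same class were lower in AHARIBO libraries. The Eif5 transcript ENSMUST00000221648.1, from the gene for an initiation factor that triggers GTP hydrolysis at the start codon, had 20.2, 16.3 and 20.0 CPM in standard and 11.6 and 11.8 CPM in AHARIBO libraries. The groups were well separated (-0.68, SE 0.12, edgeR adjusted p = 0.000268), while the Eif5 reference differed by 0.08 (SE 0.08, edgeR adjusted p = 0.66). The Rhoa transcript ENSMUST00000193619.1, from the gene for a small GTPase of the actin cytoskeleton, was 92.3% intronic and had 24.6, 24.6 and 25.1 CPM in standard against 17.7 and 20.4 CPM in AHARIBO libraries (-0.38, SE 0.10, edgeR adjusted p = 0.0198). The Atp5j transcript, of a gene for a coupling subunit of the mitochondrial ATP synthase, fell by 0.55 on the log2 scale (SE 0.12, edgeR adjusted p = 0.00488). The other 7 of the 10 highest, from Tmcc1, Gm16286, Emb, Zfp57, Psph, Ppp1r10 and Hnrnpc, did not pass.

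A few transcripts stood far above the coding transcript of their gene. For Fam221b, ENSMUST00000134487.1 (chr4:43663096-43669145) had 42.9, 40.2 and 46.3 CPM in standard and 32.2 and 31.8 CPM in AHARIBO libraries, and the coding transcript was at 0.112 CPM or less in every library, below the floor. The retained-intron transcript was lower in AHARIBO libraries (-0.42, SE 0.09, edgeR adjusted p = 0.0024), and 60.5% of it was intronic. The Arhgap4 transcript ENSMUST00000128329.1 had 21.7 to 27.6 CPM in standard and 20.8 to 21.3 CPM in AHARIBO libraries beside a mean of 2.51 CPM for its reference. It overlaps another gene over 20.3% of its length. Transcripts of Cysltr2, a leukotriene receptor gene, and of Fbxl13, Cdk14, Slc15a3, Fkbp14, Cyyr1 and Ak7 also had a higher level per kb than their reference. Except for Fkbp14 and Ak7, those references had means of 0.37 CPM or less, under the floor of the shallowest library, so the ratios have no order. None of these transcripts passed the test between methods.

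All 20141 retained-intron transcripts together, those under 1 CPM included, held 14.7%, 14.8% and 14.7% of the reads in standard and 14.5% and 14.5% in AHARIBO libraries. The means were 14.8 ± 0.0238% (SD, n = 3) and 14.5 ± 0.0266% (SD, n = 2), a difference of -0.25 percentage points. The AHARIBO libraries were below all standard libraries, which gives p = 0.1 in an exact two-sided permutation test, the smallest p that 3 against 2 libraries allow. The libraries overlapped when duplicate reads were kept (-0.50 percentage points, exact permutation p = 0.3) or with 1 transcript per gene and type (-0.18, exact permutation p = 0.3). The median level relative to the reference was 27.4% to 27.5% in standard and 26.9% and 27.2% in AHARIBO libraries.

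Which retained-intron transcripts differed between AHARIBO and standard libraries was tested with edgeR's quasi-likelihood test over all 66972 transcripts with 1 CPM in a library. Across that whole set 4.51% passed an adjusted p under 0.05, 2.27% as higher and 2.24% as lower in AHARIBO libraries. Of the 13416 retained-intron transcripts 183 were higher (1.36%) and 337 lower (2.51%), so that 3.88% were called. The median log2 difference was -0.00 over retained-intron transcripts and 0.00 over all transcripts tested. No overlap between the libraries of either method was seen for 2246 higher and 2350 lower retained-intron transcripts (34.3%), and in the whole set for 17.3% and 16.5% (33.8%). Most called differences were small: 33 of the higher and 10 of the lower transcripts changed more than 2-fold. The count rested strongly on the test and on AHARIBO replicate 1. DESeq2 called 6 higher and 30 lower, and without AHARIBO replicate 1 the edgeR test called 20 and 47. It called 67 and 115 without standard replicate 1, 104 and 221 without standard replicate 3, and 177 and 314 without standard replicate 2. With library size in place of TMM scaling the split was 238 higher to 246 lower, 49.2% higher in place of 35.2%.

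Of the 10 largest rises among transcripts with a mean of 2 CPM or more, 9 were in transcripts that lack the start codon, as did 59.2% of the 13410 transcripts with a reference. The Atxn7l3 transcript ENSMUST00000145484.1 (chr11:102289300-102293444), from a gene for an adaptor of the SAGA deubiquitinase module, had 5.38, 5.19 and 4.60 CPM in standard and 15.5 and 10.8 CPM in AHARIBO libraries. Both AHARIBO values were above all standard ones (1.38, SE 0.16, edgeR adjusted p = 1.91e-08). It holds codons 160 to 354 of the reference, which itself was higher by 0.65 (SE 0.13, edgeR adjusted p = 0.000759). Likewise the Med13l transcript ENSMUST00000202787.1 (chr5:118750387-118763916), from a gene for a subunit of the Mediator kinase module, had 5.94, 7.84 and 5.55 CPM against 15.6 and 11.5 CPM (1.06, SE 0.15, edgeR adjusted p = 3.23e-06). Codons 1723 to 2207 lie in it, and its reference was higher by 0.60 (SE 0.09, edgeR adjusted p = 1.28e-05). The other rises came from 2610507B11Rik, Fnip2, Dbf4, Zzef1, Pacs2, Nbeal1 and Atrx, by 1.00 to 1.40 on the log2 scale. Atrx encodes a chromatin remodeller and Dbf4 the activating subunit of the replication kinase Cdc7. The exception was Hmgb3, whose transcript contains the start codon but shares 66.4% of its windows with other genes.

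Of the 10 largest falls, 6 were in transcripts that contain the start codon, beside 40.8% of all 13410, namely those of Vamp2 (codons 1 to 41), Smarcd3 (1 to 160), Pex7 (1 to 108), Slc30a9 (1 to 35), Coprs (1 to 46) and Mvb12a (1 to 94). Another 3, of Mpp6, Topbp1 and Ddx23, contained no coding sequence, and that of Sbno2 held codons 90 to 143. The Vamp2 transcript ENSMUST00000149780.1 (chr11:69088522-69089675), from the gene for a vesicle fusion protein, had 3.70, 2.32 and 3.01 CPM in standard and 1.05 and 1.50 CPM in AHARIBO libraries. Its groups did not overlap (-1.25, SE 0.32, edgeR adjusted p = 0.0129), and the Vamp2 reference differed by -0.35 (SE 0.19, edgeR adjusted p = 0.336). The Coprs transcript ENSMUST00000210749.1, whose gene encodes a cofactor of the arginine methyltransferase PRMT5, had 7.06, 7.84 and 5.87 CPM against 3.76 and 3.59 CPM (-0.93, SE 0.19, edgeR adjusted p = 0.0016). Again the AHARIBO values were the lower ones without overlap. The Mpp6 transcript, 87.1% intronic, had 4.59, 4.19 and 5.24 CPM against 2.01 and 2.00 CPM (-1.20, SE 0.24, edgeR adjusted p = 0.00138), while its reference differed by 0.03 (SE 0.13, edgeR adjusted p = 0.927).

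Over all 337 lower transcripts, 275 held the start codon of the reference, 49 held other coding sequence only and 13 none. Among all 13410 these classes had 5470, 7690 and 250 transcripts. Over all 183 higher ones, 33 held the start codon, 147 other coding sequence only and 3 none. The reference itself was called lower for 97 of the 337 and higher for 56 of the 183. It was called in the opposite direction for 1 of the 337 and for 0 of the 183. Splitting the transcripts by where they lie in the coding sequence was done after the values were seen, so the values by position are given as a description without a test.

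Position was measured as the middle of the shared stretch within the reference's coding sequence, which was cut into 10 bins of equal length from the start codon (bin 1) to the stop codon (bin 10). In bin 1 (1535 transcripts) the log2 difference between the methods had a median of -0.14, with 4 transcripts called higher and 86 lower. It rose through -0.02 in both bin 4 (1295) and bin 5 (2023) to 0.15 in bin 10 (721), where 20 were called higher and 0 lower. As a share of the transcripts in a bin, calls of lower fell from 5.60% to 0% and calls of higher rose from 0.261% to 2.77%. Over all transcripts tested these shares were 2.24% and 2.27%.

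**Figure D3:**
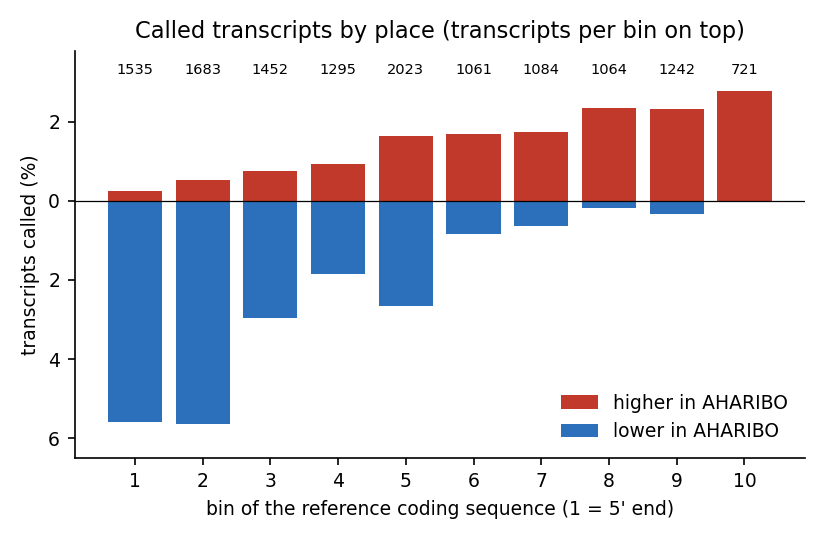
Percent of retained-intron transcripts called higher (up, red) or lower (down, blue) in AHARIBO libraries at an edgeR adjusted p under 0.05, by the bin of the reference's coding sequence in which their shared stretch is centred, with the number of transcripts on top. Calls of lower fall from 5.60% in bin 1 to 0% in bin 10, and calls of higher rise from 0.261% to 2.77%.

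The same order was seen relative to the reference transcript. On the scale of log2(retained-intron transcript / reference, each + 0.5 CPM), the median of bin 1 in AHARIBO replicates 1 and 2 was -0.23 and -0.13 away from the mean of the 3 standard libraries. In bin 10 it was 0.16 and 0.12 away. The standard libraries stayed within -0.04 and 0.05 of their own mean in every bin. Between the last 2 bins and the first 2 bins, the median log2 ratio differed by -1.15, -1.05 and -1.13 in the standard libraries and by -0.81 and -0.94 in the AHARIBO libraries. Both AHARIBO values were above all standard ones, by 0.23 in the mean, and the value was 0.24 over the transcripts with 1 CPM in every library. AHARIBO replicate 1 lay farther from the mean of the standard libraries than replicate 2 in every bin except bin 7 (0.049 against 0.057).

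**Figure D4:**
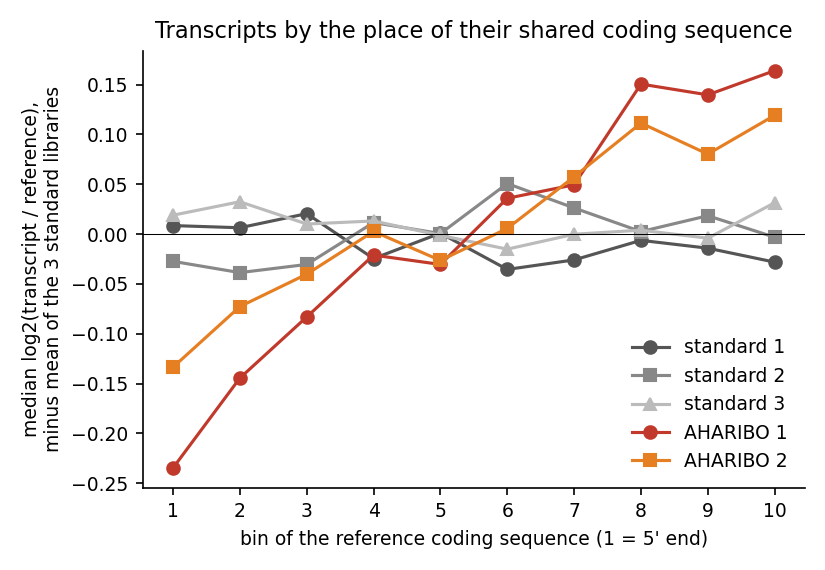
Median log2 ratio of retained-intron transcripts to their reference in each library (vertical, minus the mean of the 3 standard libraries) by bin of the reference's coding sequence from 5′ to 3′ (horizontal). The standard libraries (grey) stay between -0.04 and 0.05, while AHARIBO replicates 1 (red) and 2 (orange) run from -0.23 and -0.13 in bin 1 to 0.16 and 0.12 in bin 10.

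Among transcripts with the start codon, those that ended sooner after it had the lower values. Those whose shared stretch ended by codon 25 had a median log2 difference of -0.23 (216 transcripts, 23 called lower and 0 higher), and those ending between codons 26 and 50 one of -0.24 (411, 45 lower and 1 higher). The median was -0.15 for stretches ending at codons 76 to 100 (505), -0.07 past codon 200 and up to codon 300 (760) and 0.02 past codon 500 and up to codon 1000 (730, 2 lower and 9 higher). Calls in these classes are to be read beside 2.27% higher and 2.24% lower over all transcripts tested. All transcripts with the start codon and not the stop codon had -0.10 (4432, 24 or 0.542% called higher and 240 or 5.42% lower). Those with neither had 0.07 (5498, 74 or 1.35% higher and 39 or 0.709% lower). Those with both the start and the stop codon had -0.07 (1038, 9 or 0.867% higher and 35 or 3.37% lower). Those with the stop codon alone had 0.08 (2192, 73 or 3.33% called higher and 10 or 0.456% lower). The 250 transcripts that shared no coding sequence with the reference had -0.22, with 3 called higher and 13 lower.

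The contrast appeared within single genes. In 595 genes a retained-intron transcript was centred in bins 1 to 2 and another in bins 9 to 10, taking the more abundant where there were several. The log2 difference was the higher one in bins 9 to 10 in 446 of them (75.0%), by a median of 0.23 over the 595 genes. In 7 genes, Aplp2, Atl2, Gspt1, Maf1, Rnf10, Setd5 and Wsb2, transcripts were called in both directions, and for each of the 7 the reference did not pass. Every transcript of these genes that was called higher lacked the start codon, and every one called lower contained it, except 1 of Maf1 that has no coding sequence. The 19 calls in these genes depended on the test and the libraries. Without AHARIBO replicate 1, 1 of the 19 was called and none of the genes in both directions. Without standard replicate 1, 2 or 3, the calls were 8, 13 and 13 and the genes 1, 3 and 4, and without AHARIBO replicate 2 they were 15 and 3. With duplicates kept they were 10 and 2, and DESeq2 called 1 of the 7 for which it gave an adjusted p.

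Gspt1 encodes eRF3a, the GTPase that works with eRF1 in translation termination. Its transcript ENSMUST00000229660.1 (chr16:11252567-11254325) holds codons 1 to 119 and had 51.5, 54.0 and 57.3 CPM in standard and 42.1 and 42.2 CPM in AHARIBO libraries (-0.36, SE 0.08, edgeR adjusted p = 0.00753). Its transcript ENSMUST00000166063.1 (chr16:11230912-11237820) holds codons 220 to 344 and had 9.75, 9.82 and 10.2 CPM against 13.6 and 13.7 CPM (0.47, SE 0.13, edgeR adjusted p = 0.0231). The groups were separated in both, in opposite directions, and the Gspt1 reference had 102, 104 and 108 against 104 and 103 CPM (-0.01, SE 0.08, edgeR adjusted p = 0.955).

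Rnf10 encodes a RING finger ubiquitin ligase. Its transcript with codons 1 to 53, ENSMUST00000200923.1 (chr5:115270620-115272895), had 49.5, 50.9 and 49.0 CPM in standard and 34.5 and 35.0 CPM in AHARIBO libraries (-0.52, SE 0.09, edgeR adjusted p = 6.0e-05). That with codons 622 to 707 was low, at 1.57, 1.66 and 2.70 CPM against 3.15 and 3.99 CPM (0.90, SE 0.27, edgeR adjusted p = 0.0406). Setd5, the gene of a SET domain protein, had 5 transcripts that were called. Its transcript with codons 1 to 24 had 22.6, 20.3 and 24.4 CPM against 14.9 and 16.3 CPM (-0.52, SE 0.11, edgeR adjusted p = 0.0027). The other 4 began at codon 24 or later and were higher by 0.55 to 0.89, with overlap of the groups in none of them.

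For Aplp2, the gene of an amyloid precursor-like protein, the transcript with codons 1 to 35 was lower by a log2 difference of -0.49 (SE 0.12) and that with codons 497 to 613 higher by 0.48 (SE 0.13). For Atl2, an atlastin gene that shapes the endoplasmic reticulum, codons 1 to 121 went with -0.44 and codons 358 to 583 with 0.45. Maf1 encodes a repressor of RNA polymerase III. Its 2 transcripts that hold codons 1 to 89 and 1 to 124, and its transcript without coding sequence, were lower by -0.46, -0.38 and -0.48, and its transcript with codons 127 to 258 was higher by 0.98. For Wsb2, the gene of a substrate adaptor of a ubiquitin ligase, the values were -0.63 with codons 1 to 61 and 1.17 with codons 278 to 393, the latter in a transcript at 0.773 to 3.15 CPM with 33.6% of its windows in other genes.

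**Figure D5:**
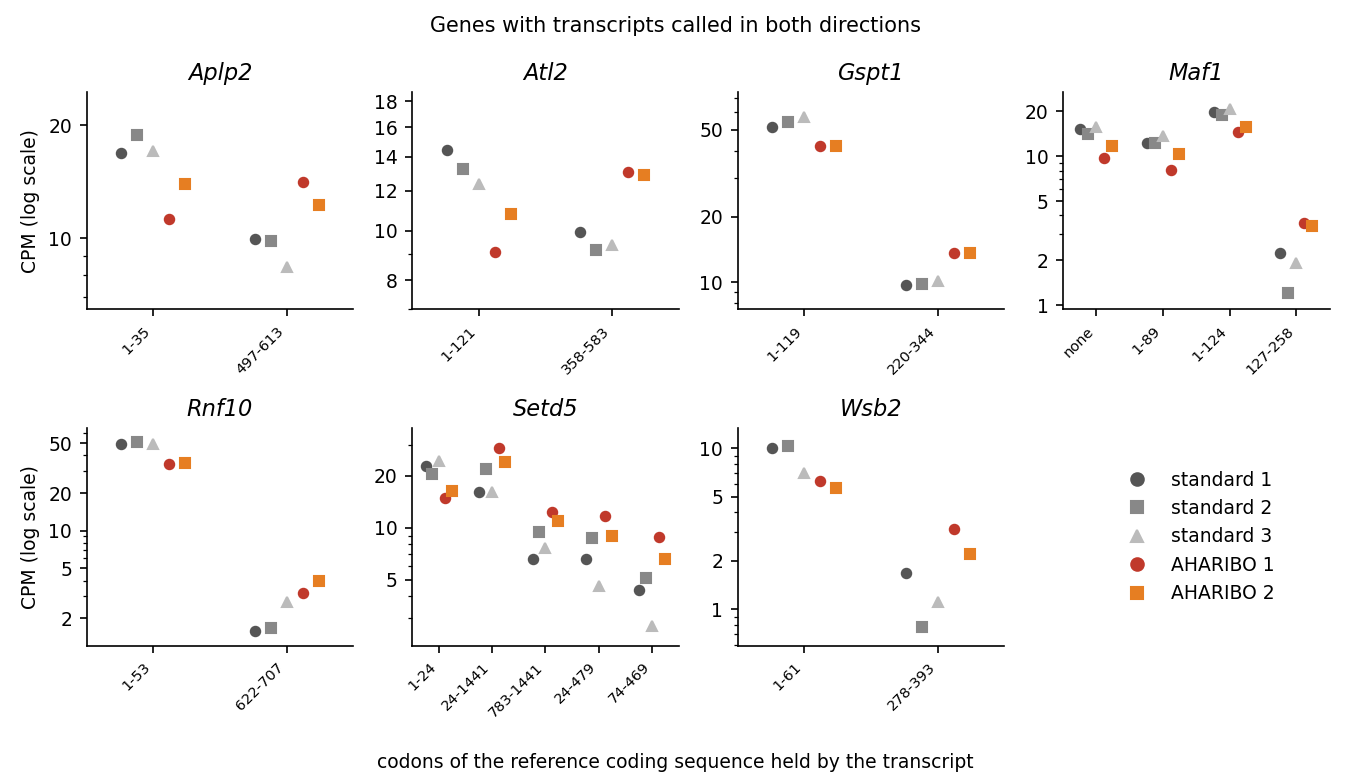
CPM (vertical, log scale) in each of the 5 libraries for the retained-intron transcripts called in the 7 genes with calls in both directions, with the codons of the reference that each transcript holds below it. In Gspt1 the transcript with codons 1 to 119 has 51.5 to 57.3 CPM in standard and 42.1 to 42.2 CPM in AHARIBO libraries, and the one with codons 220 to 344 has 9.75 to 10.2 and 13.6 to 13.7 CPM.

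No single transcript passed a test of its ratio to the reference. The test took the retained-intron transcript and the reference in one edgeR model with an interaction term, over 47491 pairs of a coding transcript with another transcript of its gene, of which 0 passed (0%). The 13410 retained-intron pairs had a lowest adjusted p of 0.358. Without adjustment 996 of them (7.43%) had p under 0.05, 459 higher and 537 lower in AHARIBO libraries, beside 5.25% of all pairs. Limma on the log2 ratios likewise called 0, with a lowest adjusted p of 0.117 and 2323 (17.3%) at an unadjusted p under 0.05, beside 14.9% of all pairs. Of the unadjusted ones in the edgeR test, 256 in bin 1 of the coding sequence were lower and 10 higher, and 56 in bin 10 were higher and 5 lower.

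Cytosolic ribosomal protein genes gave the largest number of calls among the 9 gene lists examined. Of 170 retained-intron transcripts from 64 of 84 genes, 45 were lower, 1 (Rps12) was higher and 124 did not pass (27.1% called, beside 4.51% of all transcripts tested). Their median log2 difference was -0.17, and that of their references -0.20. The Rps21 transcript ENSMUST00000148629.1, with 126, 115 and 141 CPM in standard and 91.5 and 107 CPM in AHARIBO libraries, was one of those that fell (-0.36, SE 0.08, edgeR adjusted p = 0.00773). Relative to the reference the group's median log2 difference was -0.00. The most abundant transcripts of Rpl3 and Rps3 had mean levels of 316 and 214 CPM and did not pass.

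Translation factor genes gave 96 transcripts, 8 higher and 6 lower (14.6%, beside 4.51% of all transcripts tested). Of the 8, 5 were overlapping transcripts of 1 gene, Eif4a2, which encodes an RNA helicase of the cap-binding complex, 2 from Eif4g2 and 1 from Pabpc1. Eif4a2 had 15 retained-intron transcripts, more than any other gene. The 5 that rose held stretches beginning at codons 107 to 240, by 0.35 to 0.82 on the log2 scale. The 8 that begin at codon 1 differed by -0.06 to 0.27, and none of them passed, nor did the 2 others. The transcript ENSMUST00000125553.1, with codons 107 to 209, had 8.18, 7.29 and 6.98 CPM in standard and 14.0 and 12.6 CPM in AHARIBO libraries. A snoRNA gene lies inside it and inside 3 others of the 5, and these snoRNAs were themselves higher. Gm24201, inside ENSMUST00000125553.1, averaged 0.438 CPM in standard and 2.18 CPM in AHARIBO libraries (edgeR adjusted p = 0.00159), while the transcript averaged 7.48 and 13.3 CPM. Gm26447, inside ENSMUST00000150117.1, averaged 1.08 and 3.65 CPM (edgeR adjusted p = 0.00362), while the transcript averaged 12.9 and 17.7 CPM. The part of these snoRNAs in the rises was not tested. Lower were single transcripts of Eef2, Eif1ax, Eif3i, Eif4h, Eif5 and Tpt1.

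Among SR splicing factor genes, 7 of 26 transcripts were lower and 0 higher (26.9% called, beside 4.51% of all transcripts tested). Of the 7, 5 were overlapping transcripts of 1 gene, Srsf11, and the others came from Srsf1 and Tra2a, whose products bind exonic enhancers and recruit the spliceosome. The median was -0.11 for the transcripts and -0.14 for their references. The most abundant were transcripts of Srsf5, Srsf3 and Srsf6, at mean levels of 105, 91.0 and 83.1 CPM, which did not pass. In the next groups the share called is to be read beside the 4.51% of all transcripts tested. Of 57 hnRNP transcripts 2, both of Hnrnpa2b1, were higher and 2, of Hnrnpa3 and Pcbp2, lower (7.02%). Of 127 transcripts of spliceosome protein genes 1 (Sf3b3) was higher and 6 lower (Ddx23 and Sf1 with 2 each, Prpf38b and Snrpc), 5.51% in all. Of 37 of NMD and export factor genes 3 were higher, from the export genes Thoc2 and Thoc7, and 0 lower (8.11%). Of 25 of CLK, SRPK and PRP4 kinase genes 1 was higher (4%), from the PRP4 kinase gene Prpf4b and not from a CLK or SRPK gene. Tbx3 alone of 20 pluripotency factor genes had such transcripts, 2 of them, up to 38.2 CPM, and neither passed.

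In the genes known for regulated intron retention, edgeR called 0 of 19 transcripts, with 1 at an unadjusted p under 0.05. With 4.51% of all transcripts called, a count of 0 in 19 is near the background. Mat2a had the highest levels. Its transcript ENSMUST00000206368.1, which retains the intron whose ends are shown above, had 50.4, 51.3 and 51.7 CPM in standard and 47.2 and 49.0 CPM in AHARIBO libraries, beside a reference at 127 CPM. The difference was -0.09 (SE 0.08, edgeR adjusted p = 0.617), although the groups did not overlap. Its other 2 transcripts had mean levels of 41.2 and 25.1 CPM. The 6 transcripts of Clk1 had mean levels of 0.841 to 6.75 CPM and the 4 of Clk4 0.749 to 2.47 CPM. The 3 of Ogt ranged from 9.89 to 11.4 CPM, and the 3 of Nxf1, the gene of the mRNA export receptor, from 1.42 to 11.8 CPM. The median log2 difference of the 19 was 0.22 and that of their references 0.18.

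Small RNA genes lie inside 124 of the transcripts, 111 different ones. Of the 124, 11 were higher and 19 lower (24.2%, beside 4.51% of all transcripts tested), and their median level was 18.1 CPM. Most abundant was the Hspa8 transcript ENSMUST00000149936.1, with 516, 509 and 556 CPM in standard and 461 and 523 CPM in AHARIBO libraries, followed by those of Eif4a1, Rpl3, Rack1 and Rps3. The Rack1 transcript ENSMUST00000142269.1 was lower (-0.29, SE 0.08, edgeR adjusted p = 0.0251), the Hspa8 one was not called (-0.10, SE 0.08, edgeR adjusted p = 0.523). The level of the separately annotated small RNAs was a median of 0.859% of that of the transcript containing them, and 10% or more in 19 of the 124, 3 of Eif4a2 among them.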

How the data were processed

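Ribosome profiling reads of mESCs were analysed in 3 standard and 2 AHARIBO libraries, grouped by the labels. The values deposited are raw counts for each transcript, with duplicate reads removed (used here) or kept, and transcript lengths. According to the methods and the submitters' processing notes, the authors trimmed with Trimmomatic 0.36, discarded reads under 20 nt, removed rRNA and tRNA reads, aligned to Gencode M17 transcripts with STAR and removed antisense reads. Counting of reads that match several transcripts is not given in the sources used here. The number of columns not used was 0.

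Transcript types, exons and coding sequences came from Gencode M21 (GRCm38). Of 135276 transcripts, 132785 were found with the same version, 2167 with another and 324 were not found. CPM values used TMM factors (edgeR 4.0.16, R 4.3.3). For transcripts with 1 CPM in a library the test was edgeR's quasi-likelihood test, for ratios with an interaction term, and Benjamini-Hochberg adjustment ran over all transcripts or pairs. DESeq2 1.42.0 and limma 3.58.1 (pseudocount 0.5 CPM) were alternatives, as were other scaling, filters, duplicates kept, a replicate block, other references and leaving out each library. Shares were compared by exact permutation over 10 splits.

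Named transcripts are the 10 largest rises and 10 largest falls (adjusted p under 0.05, no overlap, mean of 2 CPM or more), the 10 highest per kb, without coding sequence, with a small RNA gene and relative to the reference, the 3 highest per gene list, all of genes with regulated retention, and the neighbours of the threshold, with 1 transcript per gene in each. The largest changes of the ratio were to be named too, and none passed. Some items that the rule names are not reported here. Genes called in both directions, Eif4a2, Snora3 and Taf1d were added after their values were seen. The transcripts and lists were chosen with earlier results of these data known. On simulated data, edgeR recovered 99% of 4-fold and 77% of 2-fold changes among 66972 transcripts (12 unchanged ones called), DESeq2 92% and 58%. For ratios over 47491 pairs, edgeR recovered 97% and 59%. The spread of these simulated pairs was set and not estimated from the data, so the values do not give the power of the ratio test here. In both simulations only transcripts with a mean of 2 CPM or more were changed. Floors cover counting error only.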

Additional observations from a re-analysis of the deposited data

How the results depend on the processing

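The number of calls depended on the test and the libraries. Against 183 higher and 337 lower retained-intron transcripts, DESeq2 called 6 and 30, keeping duplicate reads 131 and 212, and taking 1 transcript per gene 90 and 163, since fewer transcripts were counted. Leaving out 1 library gave 20 to 249 higher and 47 to 414 lower. Of 53 named transcripts that were called, DESeq2 gave an adjusted p for 21 and called 4. Between 9 (without AHARIBO replicate 1) and 47 (without AHARIBO replicate 2) stayed called when 1 library was left out, 23 with duplicates kept. The causes were not tested. No ratio to the reference passed under any alternative.

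Deviations of same-numbered libraries from their group means correlated by 0.0355 and -0.0942. With 2 AHARIBO libraries, the deviations of one mirror those of the other, so these values cannot show whether the replicate numbers pair the libraries. With the replicate block, 114 were higher and 208 lower. Limma with the replicate block called 0 ratios.

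The median level relative to the reference, 27.4% in CPM, was 75.1% per kb and 12.8% against the sum of all coding transcripts of the gene, by construction. The share of reads was lower in AHARIBO libraries in each alternative, by 0.175 to 0.501 percentage points, but the libraries overlapped with duplicates kept or with 1 transcript per gene and type (exact permutation p = 0.3 for both). The difference by position, 0.23, was 0.22 to 0.26 under 5 alternatives and 0.17 to 0.30 with 1 library left out, all chosen after the data were seen. At the lowest depth 3 counts are 0.476 CPM, so changes in transcripts near 1 CPM rest on few reads.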

Other observations

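Other transcript types were ordered by position likewise. In processed_transcript RNAs of protein-coding genes the median log2 difference between the methods was -0.10 in bins 1 and 2 of the coding sequence (1926 transcripts) and 0.14 in bins 9 and 10 (815). In nonsense_mediated_decay transcripts it was -0.06 (555) and 0.18 (233), beside -0.10 (3218) and 0.14 (1963) for retained-intron transcripts. The difference between these bins relative to the reference was larger in AHARIBO than in standard libraries by 0.21, 0.22 and 0.23 in the 3 types. The types share genes, references and libraries, and no difference between them was tested.

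Of the snoRNA genes inside retained-intron transcripts, 28 had 1 CPM in a library. By edgeR's test 10 of them were higher in AHARIBO libraries and 0 lower, beside 58 and 0 of all 168 snoRNA transcripts tested. Snora3 lies in the Rpl27a transcript ENSMUST00000132877.1. It had 1.12, 1.55 and 0.952 CPM in standard and 3.76 and 4.89 CPM in AHARIBO libraries, while the Rpl27a transcript averaged 109 and 92.7 CPM and was not called (edgeR adjusted p = 0.108). In Taf1d, whose transcript ENSMUST00000213235.1 contains the snoRNA Gm22579, both were higher: the snoRNA averaged 0.798 and 2.04 CPM and the transcript 11.4 and 19.8 CPM.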
